A study of Mus musculus with 14 samples.

Results

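Samples that the paper names colon tissue were compared between wild-type (WT) mice and *MiR-29ab1-/-* mice after dextran sulfate sodium (DSS). DSS is a sulfated polymer that injures the epithelium of the colon when mice drink it. The mice were taken by genotype and treatment from the labels, which gave 6 of the 14 mice of the series, 3 WT and 3 *MiR-29ab1-/-*, and all 6 were used. All 6 were C57BL/6N mice that had received 3.5% DSS for 3 days, so the WT mice were not untreated controls. The *MiR-29ab1-/-* mice carried a germline deletion of the hairpins of miR-29a and miR-29b-1, which therefore were missing in epithelial, immune and stromal cells alike, and age and sex were not given in the labels. The remaining 8 mice, 4 of each genotype without DSS, were used only to set the same genotype comparison beside the one after DSS. RNA sequencing reads had been counted on 54721 genes, and transcripts beside the deleted hairpins on chromosome 6 were left out of every count below.

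The lining of the colon is renewed from stem cells at the crypt base. Their progeny become either absorptive colonocytes, which take up salt, water and fatty acids, or secretory cells, namely mucus-making goblet cells, hormone-making enteroendocrine cells and chemosensory tuft cells. Class II molecules of the major histocompatibility complex (MHC) present peptides to CD4+ T cells and are made by dendritic cells, macrophages and B cells, and by colon epithelium under interferon-γ. The miR-29 family represses transcripts that carry a match to its seed in the 3′ untranslated region (3′ UTR), among which those of collagens and other matrix proteins are the best known.

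The mature sequences of the family are shown because their shared seed, bases 2 to 8, in capitals, defines the target sites counted further on. The sequences and positions are those of RefSeq on GRCm38.p6.
miR-29a-3p: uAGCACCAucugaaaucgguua
miR-29b-3p: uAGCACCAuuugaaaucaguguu
miR-29c-3p: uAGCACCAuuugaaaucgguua
The first is encoded on the minus strand of chromosome 6 (chr6:31062673-31062694). miR-29b-3p is encoded there too (chr6:31063025-31063047, minus strand), and another copy lies on the plus strand of chromosome 1 (chr1:195037091-195037113). The gene of miR-29c-3p is beside this copy (chr1:195037600-195037621, plus strand). The deletion concerned the copies on chromosome 6, and the seed was the same in all 3 sequences.

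The libraries held 20076719 to 23153149 counted reads, and 3 reads, the floor used here, corresponded to 0.130 to 0.149 CPM (reads scaled to a common library size) before TMM scaling, a limit that covers counting error only. The CPM of single genes below include the TMM factors and are given for mice 1, 2 and 3 of each genotype, numbers that only name the libraries. The reads on transcripts beside the deleted hairpins put 6 of 6 libraries on the side of their label. The first principal component, with 41.6% of the variance, placed *MiR-29ab1-/-* mouse 3 (−13.6) among the WT mice (−23.5 to −11.4) and apart from *MiR-29ab1-/-* mice 1 and 2 (30.4 and 35.6). These 2 mice also had the largest shares of mitochondrial reads, 14.8% and 20.2%, against 6.15% to 8.81% in WT mice and 7.43% in *MiR-29ab1-/-* mouse 3. Leading counts are therefore given with and without mouse 3. The labels name small intestinal crypts and the paper names colon. The summed level of the 9 markers of colon epithelium was 11520 to 16940 CPM, of which *Muc2* made 3549 to 7992 CPM. That of the 13 of small intestine was 300.1 to 522.3 CPM, of which *Fabp2* made 204 to 403 CPM. Also among the 13, *Apoa1*, *Defa24* and *Lyz1* had 36, 22 and 25 reads in WT mouse 3. *Tmprss15* and *Gip*, which belong to other lists, had 0 reads in all 6 mice. Which of the 2 tissue names holds was not tested further. The 11 general epithelial markers summed to 24400 to 30300 CPM and the 9 smooth muscle markers to 12.6 to 18.1 CPM, so muscle was almost absent. The 9 endothelial markers summed to 3.77 to 8.54 CPM and the 9 fibroblast markers to 16.1 to 48.2 CPM. Marker reads were thus mostly epithelial, and values below are not those of a whole colon wall.

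**Figure D1:**
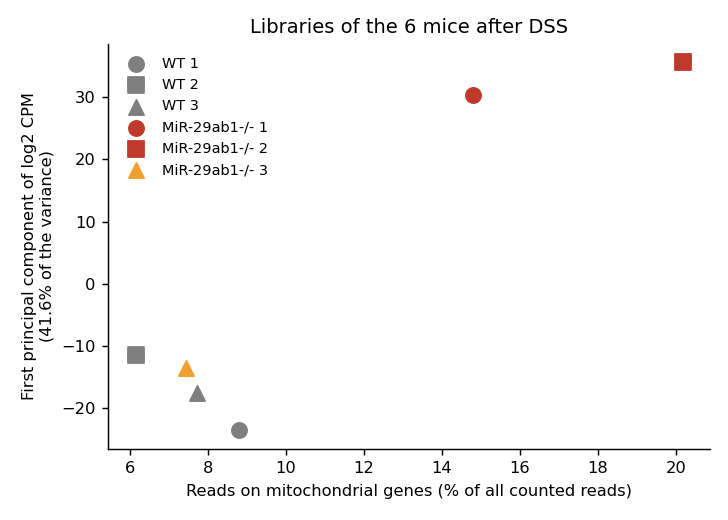
The first principal component of log2 CPM (41.6% of the variance) is plotted against the percentage of counted reads on mitochondrial genes, 1 point per mouse after DSS. *MiR-29ab1-/-* mice 1 and 2 lie at 30.4 and 35.6, and mouse 3 at −13.6 among the WT mice.

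The first question was how many genes differed between the genotypes after DSS. Of 14905 genes tested with edgeR's quasi-likelihood test, 0 passed an adjusted p under 0.05, while 590 (3.96%) had a higher and 485 (3.25%) a lower level with the deletion at an unadjusted p under 0.05, or 7.21% in both directions. DESeq2 called 42 genes higher and 15 lower at an adjusted p under 0.05. Without *MiR-29ab1-/-* mouse 3, edgeR called 91 genes (0.596%) at an adjusted p under 0.05, and 8.41% of genes were higher and 8.13% lower at an unadjusted p under 0.05. The numbers higher and lower were 340 and 250 without *MiR-29ab1-/-* mouse 1, 266 and 215 without *MiR-29ab1-/-* mouse 2, and 384 genes were higher without WT mouse 1. With the mitochondrial share as a covariate, added after the data were seen, they were 125 and 134. The lists of DESeq2 and of edgeR without mouse 3 shared 23 genes, 3 of which belong to the gene lists described here (*Ephb3*, *Col3a1* and *Plaur*). From the 26 lists DESeq2 alone added *Apob*, *Slc7a9*, *H2-Eb1*, *Saa1*, *Clu* and *Abcg5*. It also added the cell type markers *Icos* and *Cd6* (T cells), *Mcpt1* (mast cells) and *Hba-a2* (red blood cells). From the same lists edgeR without mouse 3 added 10 members, among them *Lrig1*, *Ascl2*, *Axin2*, *Nox1*, *Sparc*, *Cubn* and *Acss2*. Below, single genes are called higher or lower by the unadjusted p of edgeR's test with all 6 mice, with p under 0.05 unless p above 0.05 is stated, and the adjusted p of all 1075 such genes lay between 0.246 and 0.668. These calls therefore describe an ordering and are not corrected for the number of genes tested. Over all genes tested, the genotypes did not overlap for 5.31% on the higher side and 6.28% on the lower side. For single genes named for p under 0.05, a lack of overlap is no separate support. The median log2 fold change (*MiR-29ab1-/-* over WT) of all genes tested was −0.0052. As the tissue was sequenced in bulk, fewer cells of a type and less RNA per cell cannot be told apart.

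Of the 12 genes with the smallest p on each side and no overlap of the genotypes, several lay outside the 26 gene lists. *Icos* among them is also 1 of the 19 T cell markers counted below, so the 2 results are not separate. *Icos*, a costimulatory receptor of activated T cells, was at 0.126, 0.4604 and 0.237 CPM in WT mice and 2.37, 2.23 and 1.08 CPM in *MiR-29ab1-/-* mice (log2 fold change 2.75, standard error 0.54). *Rora*, a nuclear receptor of innate and helper lymphocytes, was at 0.921, 1.59 and 1.14 CPM in WT mice and 4.94, 4.08 and 2.75 CPM in *MiR-29ab1-/-* mice (log2 fold change 1.68, standard error 0.34). Both genes were highest in *MiR-29ab1-/-* mice 1 and 2, and *Icos* passed the filter on low counts through the *MiR-29ab1-/-* mice. That mouse 3 exceeded every WT mouse follows from the choice of genes without overlap. On the lower side, *Ctse* (cathepsin E, an endosomal protease) was at 56.5, 44.8 and 35.7 CPM in WT mice and 19.9, 19.5 and 29.2 CPM in *MiR-29ab1-/-* mice (log2 fold change −0.997, standard error 0.21). *Nrp2*, a receptor of semaphorins, was at 40.8, 29.6 and 37.6 CPM in WT mice and 18.4, 14.2 and 24.7 CPM in *MiR-29ab1-/-* mice (log2 fold change −0.91, standard error 0.21). The μ heavy chain of immunoglobulin, *Ighm*, was at 2.85, 3.93 and 9.39 CPM in WT mice and 1.49, 1.48 and 1.08 CPM in *MiR-29ab1-/-* mice (log2 fold change −1.99, standard error 0.46). WT mouse 3 had the highest *Ighm* and also the highest summed level of the 11 B cell markers, 11.2 CPM against 1.499 to 3.24 CPM in the other 5 mice, and their part in the *Ighm* difference was not tested.

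**Figure D2:**
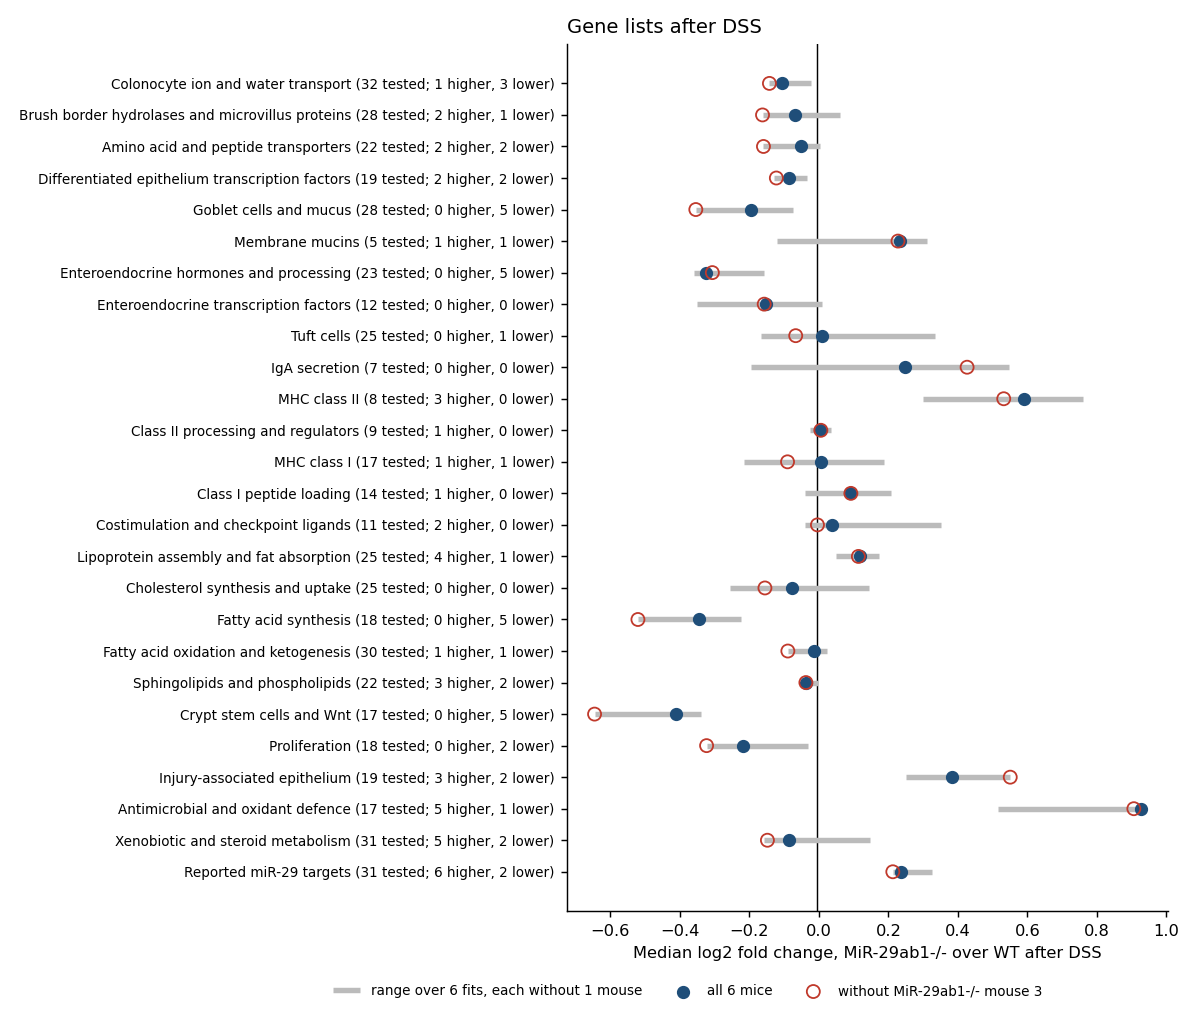
Median log2 fold change (*MiR-29ab1-/-* over WT) of 26 gene lists after DSS, with all 6 mice (filled), without *MiR-29ab1-/-* mouse 3 (open) and as the range over 6 fits that each left out 1 mouse (grey). The vertical line is the median of all genes tested, −0.0052. Crypt stem cell genes lie lowest at −0.41 and antimicrobial genes highest at 0.93.

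Absorptive genes showed changes in both directions. Of 101 tested genes in 4 lists (ion and water transport, brush border, amino acid transport and the transcription factors of differentiated epithelium), 7 were higher (6.93%, against 3.96% of all genes) and 8 lower (7.92%, against 3.25%) at p under 0.05, with a median of −0.087. *Car1*, the cytosolic carbonic anhydrase of colonocytes and a member with many reads, was at 3628, 4287 and 5169 CPM in WT mice and 3989, 5011 and 4096 CPM in *MiR-29ab1-/-* mice, and the 2 genotypes overlapped.

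*Slc9a3*, which encodes the apical sodium/proton exchanger NHE3 for salt uptake (chr13:74121457-74169442), was at 138, 148 and 213 CPM in WT mice and 258, 294 and 230.4 CPM in *MiR-29ab1-/-* mice (log2 fold change 0.65, standard error 0.18). All 3 *MiR-29ab1-/-* mice exceeded all WT mice, and the log2 fold change without mouse 3 was 0.73. *Kcnk5*, a potassium channel, was at 100.2, 99.9 and 102 CPM in WT mice and 73.7, 73.8 and 91.05 CPM in *MiR-29ab1-/-* mice (log2 fold change −0.34, standard error 0.11). Its WT values lay within a narrow range and all *MiR-29ab1-/-* values were below it. *Slc12a2*, the basolateral sodium-potassium-chloride cotransporter that feeds chloride secretion, was at 251.0, 216 and 225 CPM in WT mice and 152, 167 and 218 CPM in *MiR-29ab1-/-* mice (log2 fold change −0.36, standard error 0.14), and mouse 3 overlapped the WT mice. *Slc5a8*, a sodium-coupled transporter of short-chain fatty acids, was at 371, 339 and 309 CPM in WT mice and 263, 263 and 316 CPM in *MiR-29ab1-/-* mice (log2 fold change −0.27, standard error 0.12), again with mouse 3 in the WT range. Of the 32 ion and water transport genes these were the 1 higher and the 3 lower.

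Of the 28 brush border genes, 2 were higher and 1 lower. *Eps8*, which caps and bundles actin in microvilli, was at 119, 121 and 146 CPM in WT mice and 183, 243 and 145 CPM in *MiR-29ab1-/-* mice (log2 fold change 0.56, standard error 0.18). *MiR-29ab1-/-* mice 1 and 2 exceeded the WT mice, and mouse 3 lay within their range. The metalloprotease gene *Mep1b* was at 102, 126 and 127 CPM in WT mice and 135, 206 and 144 CPM in *MiR-29ab1-/-* mice (log2 fold change 0.45, standard error 0.17). *Cubn*, the endocytic receptor cubilin, was at 3.77, 3.73 and 4.13 CPM in WT mice and 0.926, 0.848 and 3.08 CPM in *MiR-29ab1-/-* mice (log2 fold change −1.23, standard error 0.47). Its levels in mice 1 and 2 were far below those of the other 4 mice, and without mouse 3 the log2 fold change was −2.12. *Vil1* (villin), the member with the most reads, was at 759, 906 and 882 CPM in WT mice and 1001, 969 and 855 CPM in *MiR-29ab1-/-* mice (log2 fold change 0.15, standard error 0.13, p above 0.05).

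Of 22 tested amino acid transporters, 2 were higher and 2 lower. *Slc7a9*, the light subunit of the cystine and dibasic amino acid transporter, and *Slc7a11*, the cystine/glutamate exchanger, were higher, the former at 4.65, 4.604 and 5.22 CPM in WT mice and 9.06, 10.1 and 11.1 CPM in *MiR-29ab1-/-* mice (log2 fold change 1.06, standard error 0.18) and the latter at 2.09, 2.09 and 1.66 CPM in WT mice and 3.35, 3.18 and 2.58 CPM in *MiR-29ab1-/-* mice (log2 fold change 0.63, standard error 0.27). The neutral amino acid exchangers *Slc1a5* and *Slc1a4* were lower. *Slc1a5* was at 183, 184 and 188 CPM in WT mice and 139, 148 and 158 CPM in *MiR-29ab1-/-* mice (log2 fold change −0.31, standard error 0.09). *Slc1a4* was at 36.8, 35.5 and 33.2 CPM in WT mice and 27.9, 22.2 and 29.2 CPM in *MiR-29ab1-/-* mice (log2 fold change −0.41, standard error 0.12). None of these 4 genes overlapped between the genotypes, which held for 5.31% of all genes on the higher side and 6.28% on the lower side. The other 18 had p above 0.05.

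Among 19 transcription factors of differentiated epithelium, 2 were higher, both nuclear receptors. *Hnf4g*, which drives enterocyte genes together with *Hnf4a*, was at 20.8, 23.7 and 20.9 CPM in WT mice and 32.4, 32.1 and 24.3 CPM in *MiR-29ab1-/-* mice (log2 fold change 0.44, standard error 0.14), whereas *Hnf4a* itself was at 947, 754 and 843 CPM in WT mice and 758, 788 and 788 CPM in *MiR-29ab1-/-* mice (log2 fold change −0.12, standard error 0.13, p above 0.05). *Nr1h4*, the bile acid receptor FXR, was at 92.5, 115 and 121 CPM in WT mice and 134, 179 and 136 CPM in *MiR-29ab1-/-* mice (log2 fold change 0.45, standard error 0.15). The lower factors included *Ehf*, an epithelial ETS factor, at 355, 339 and 329 CPM in WT mice and 267, 259.7 and 317 CPM in *MiR-29ab1-/-* mice (log2 fold change −0.28, standard error 0.11). In the mice without DSS the log2 fold changes of *Hnf4g* and *Nr1h4* were 0.03 and 0.07, and the difference between the experiments was 0.41 (standard error 0.19) and 0.39 (standard error 0.18), with an unadjusted interaction p under 0.05 for both. The experiments with and without DSS were run apart, so an effect of DSS and of the experiment cannot be told apart in an interaction.

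Secretory genes lay mostly on the lower side. Of 100 tested genes in 6 lists, 1 was higher (1%, against 3.96% of all genes) and 12 were lower (12%, against 3.25%), with a median of −0.10. Both the goblet cell list (0 higher and 5 lower of 28, median −0.19) and the list of enteroendocrine hormones and processing enzymes (0 higher and 5 lower of 23, median −0.33) contributed. Their medians lay between −0.35 and −0.075 and between −0.36 and −0.16 in the fits that each left out 1 mouse. No member of the 12 tested enteroendocrine transcription factors or of the 7 tested genes of IgA secretion had p under 0.05.

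Of the 5 lower goblet cell genes, 4 did not overlap between the genotypes. *Foxa3*, a forkhead factor of goblet cells, was at 56.9, 48.6 and 54.3 CPM in WT mice and 36.5, 36.4 and 42.8 CPM in *MiR-29ab1-/-* mice (log2 fold change −0.47, standard error 0.11). *Atoh1*, which commits crypt cells to the secretory lineage (chr6:64729125-64731245), was at 66.6, 66.7 and 68.5 CPM in WT mice and 48.9, 43.7 and 60.7 CPM in *MiR-29ab1-/-* mice (log2 fold change −0.39, standard error 0.12). *Creb3l1*, a membrane-bound factor of the secretory pathway, was at 214, 192 and 167 CPM in WT mice and 144, 112 and 152 CPM in *MiR-29ab1-/-* mice (log2 fold change −0.49, standard error 0.14). *Ern2*, the IRE1β sensor of protein folding in mucus-making cells, was at 70.6, 74.5 and 70.6 CPM in WT mice and 56.9, 61.2 and 57.5 CPM in *MiR-29ab1-/-* mice (log2 fold change −0.30, standard error 0.09). For these 4 of the 28 tested genes every *MiR-29ab1-/-* mouse was below every WT mouse, which held for 6.28% of all genes. The 4 had been picked for p under 0.05. The protease *Klk1* was at 1832, 1316 and 1521 CPM in WT mice and 949, 1028 and 1390 CPM in *MiR-29ab1-/-* mice (log2 fold change −0.47, standard error 0.19), with an overlap through mouse 3.

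Secreted goblet cell products with many reads varied between mice. *Muc2*, the gel-forming mucin of the colon, was at 5848, 7938 and 7992 CPM in WT mice and 5188, 3549 and 7453 CPM in *MiR-29ab1-/-* mice (log2 fold change −0.43, standard error 0.28, p above 0.05). Its levels in *MiR-29ab1-/-* mice 1 and 2 were the lowest of the 6, and mouse 3 lay in the WT range. *Clca1*, a mucus-processing metalloprotease, was at 8671, 5559 and 13529 CPM in WT mice and 2206, 5212 and 11104 CPM in *MiR-29ab1-/-* mice (log2 fold change −0.58, standard error 0.62, p above 0.05). Without mouse 3 the goblet cell list had 2 members higher and 13 lower of 28, where 8.41% of all genes were higher and 8.13% lower. Its median was −0.35, and *Muc2*, at −0.73 on the log2 scale, was then among the lower ones. In the mice without DSS the same list had 4 higher and 1 lower and a median of 0.065, where 2.07% of all genes were higher and 1.58% lower. The interaction of genotype and DSS had an unadjusted p under 0.05 for 5 goblet cell genes (4.03% of all 16367 genes tested, 0 at an adjusted p under 0.05), among them *Atoh1* (log2 difference −0.68, standard error 0.21) and *Foxa3* (−0.63, standard error 0.26).

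Membrane-bound mucins did not share a direction. *Muc1* was at 12.4, 17.04 and 21.9 CPM in WT mice and 20.7, 25.7 and 28.5 CPM in *MiR-29ab1-/-* mice (log2 fold change 0.55, standard error 0.21). *Muc3*, a brush border mucin, was at 2497, 2954 and 2692 CPM in WT mice and 1808, 1734 and 2500 CPM in *MiR-29ab1-/-* mice (log2 fold change −0.43, standard error 0.18). Both overlapped between the genotypes by 1 mouse. *Muc13* was at 1898, 2346 and 2403 CPM in WT mice and 2316, 2879 and 2619 CPM in *MiR-29ab1-/-* mice (log2 fold change 0.23, standard error 0.16, p above 0.05).

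Among hormone genes, *Pyy*, the peptide of colonic L cells, was at 59.9, 55.5 and 71.5 CPM in WT mice and 34.9, 43.2 and 45.8 CPM in *MiR-29ab1-/-* mice (log2 fold change −0.59, standard error 0.14). *Chga*, which encodes the granule protein chromogranin A, was at 59.6, 44.99 and 49.5 CPM in WT mice and 30.3, 38.8 and 44.2 CPM in *MiR-29ab1-/-* mice (log2 fold change −0.44, standard error 0.16). All 3 *MiR-29ab1-/-* mice lay below all WT mice for both, which held for 6.28% of all genes. *Pcsk1*, a prohormone convertase, was at 17.3, 14.4 and 21.3 CPM in WT mice and 14.8, 12.04 and 13.03 CPM in *MiR-29ab1-/-* mice (log2 fold change −0.41, standard error 0.17), and *Ddc*, which completes serotonin synthesis, at 74.7, 75.1 and 55.7 CPM in WT mice and 45.9, 52.4 and 61.5 CPM in *MiR-29ab1-/-* mice (log2 fold change −0.36, standard error 0.15). Both overlapped by 1 mouse or more. *Vwa5b2*, the fifth lower member, stood at only 1.47, 1.8 and 1.47 CPM in WT mice and 0.772, 0.848 and 0.583 CPM in *MiR-29ab1-/-* mice. Without DSS, 0 of 23 members were higher and 8 lower (median −0.55, with 2.07% of all genes higher and 1.58% lower there). *Chga*, at −0.93 on the log2 scale, was among these 8, and *Pyy*, at −0.58, was not. The interaction for *Chga* was 0.48 (standard error 0.22, unadjusted p under 0.05, adjusted p 0.99), with log2 fold changes of −0.44 after DSS and −0.93 without. DSS and experiment cannot be told apart in it.

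Few tuft cell genes passed p under 0.05 after DSS. Of 25 tested, 0 were higher and 1 was lower (*Inpp5j*, a phosphoinositide phosphatase, log2 fold change −0.29, standard error 0.11), and the median was 0.0084, which ranged from −0.17 to 0.33 when each mouse was left out in turn. Without DSS, 12 of the 25 were higher and 0 lower, with a median of 0.56, where 2.07% of all genes were higher and 1.58% lower. The interaction had an unadjusted p under 0.05 for 4 of the 25 (against 4.03% of all genes) and an adjusted p under 0.05 for 0.

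Antigen presentation genes lay on the higher side. Of 59 tested genes in 5 lists, 8 were higher (13.6%, against 3.96% of all genes) and 1 was lower (1.69%, against 3.25%), with a median of 0.087. The class II list led, with 3 of 8 tested genes higher, 7 of 8 on the positive side and a median of 0.59, which ranged from 0.30 to 0.76 when each mouse was left out in turn. The 3 members that were not tested, *H2-Eb2*, *H2-Oa* and *H2-Ob*, had at most 16 reads in a mouse.

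*H2-Eb1*, the β chain of the I-E molecule (chr17:34305877-34316199), was at 38.01, 46.8 and 38.9 CPM in WT mice and 109, 67.98 and 83.1 CPM in *MiR-29ab1-/-* mice (log2 fold change 1.07, standard error 0.17). *H2-Ab1*, the β chain of I-A, was at 66.8, 96.2 and 102 CPM in WT mice and 177, 112 and 146 CPM in *MiR-29ab1-/-* mice (log2 fold change 0.71, standard error 0.21). All *MiR-29ab1-/-* mice exceeded all WT mice for both β chains, and mouse 3, which lay among the WT mice on the first principal component, was between mice 1 and 2. *H2-DMb1*, part of the chaperone that loads peptides onto class II, was at 14.9, 25.03 and 19.3 CPM in WT mice and 37.1, 21.6 and 37.4 CPM in *MiR-29ab1-/-* mice (log2 fold change 0.70, standard error 0.26), with *MiR-29ab1-/-* mouse 2 inside the WT range. *H2-Aa*, the α chain of I-A, was at 43.3, 116 and 83.4 CPM in WT mice and 166, 94.3 and 129.7 CPM in *MiR-29ab1-/-* mice (log2 fold change 0.68, standard error 0.41, p above 0.05). The invariant chain *Cd74* was at 242, 474 and 548 CPM in WT mice and 723, 462 and 599 CPM in *MiR-29ab1-/-* mice (log2 fold change 0.50, standard error 0.31, p above 0.05). WT mouse 1 had the lowest level of both and *MiR-29ab1-/-* mouse 1 the highest, and the genotypes overlapped.

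The remaining class II members had larger spread. *H2-DMa* was at 12.2, 16.7 and 23.5 CPM in WT mice and 25.4, 16.5 and 24.1 CPM in *MiR-29ab1-/-* mice (log2 fold change 0.34, standard error 0.26, p above 0.05), and the class II transactivator *Ciita*, the master regulator of these genes, was at 4.81, 10.04 and 15.2 CPM in WT mice and 12.2, 10.9 and 15.1 CPM in *MiR-29ab1-/-* mice (log2 fold change 0.35, standard error 0.38, p above 0.05). *H2-DMb2* was at 0.167, 0.377 and 7.92 CPM in WT mice and 0.721, 0.636 and 0.4996 CPM in *MiR-29ab1-/-* mice, so that its negative log2 fold change (−2.17, p above 0.05) rested on WT mouse 3, without which it was 1.16. Summed over the list, class II reads were 422.8, 786.1 and 840.4 CPM in WT mice and 1251, 786.1 and 1036 CPM in *MiR-29ab1-/-* mice. Without DSS the list's median was 1.27, with 2 higher and 0 lower of 8, where 2.07% of all genes were higher and 1.58% lower. No member had an interaction p under 0.05.

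**Figure D3:**
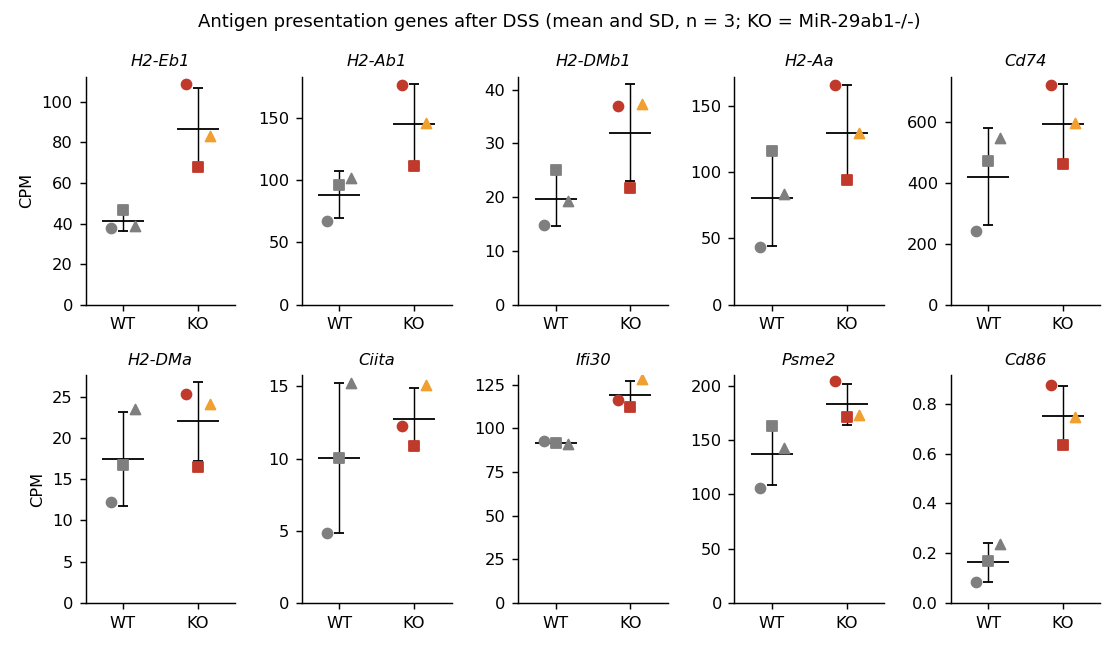
CPM of 10 antigen presentation genes in WT and *MiR-29ab1-/-* (KO) mice after DSS, 1 symbol per mouse, with mean and SD (n = 3). *H2-Eb1* and *H2-Ab1* do not overlap between the genotypes, while *H2-Aa*, *Cd74*, *H2-DMa* and *Ciita* do.

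Markers of the immune cells that carry class II were low in these libraries. Of 10 dendritic cell markers 3 passed the filter, and the list summed to between 2.64 and 6.69 CPM in the WT group against 4.54 to 11.8 CPM in the *MiR-29ab1-/-* group. The 12 macrophage and monocyte markers summed to 11.1 to 18.3 CPM and 10.9 to 28.2 CPM, the 11 B cell markers to 2.05 to 11.2 CPM and 1.499 to 3.24 CPM. No dendritic cell or B cell marker was at 0 in all 6 mice. *Fscn1*, an actin-bundling protein of mature dendritic cells and the 1 dendritic cell marker with p under 0.05, was at 0.126, 0.293 and 0.332 CPM in WT mice and 1.801, 3.13 and 0.583 CPM in *MiR-29ab1-/-* mice (log2 fold change 2.85, standard error 0.67). *Fscn1* passed the filter on low counts only through the *MiR-29ab1-/-* mice. In *MiR-29ab1-/-* mouse 3 the dendritic cell markers (4.54 CPM) were within the WT range and the macrophage markers (10.9 CPM) below it. The 19 T cell markers summed to 61.7, 52.9 and 109 CPM in WT mice and 211, 136 and 85.4 CPM in *MiR-29ab1-/-* mice. Of these, 9 of 18 tested were higher (50%, against 3.96% of all genes) and 0 lower. The part of these cells in the class II result was not tested.

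Promoters of class II genes are shown because class II genes are transcribed together through shared elements close to their starts. Capitals mark AACTGATG, a stretch of the X box as it is spelled in *H2-Eb1* and *H2-DMb1*, and GATTGG, the Y box that binds NF-Y. Other spellings of the X box were neither searched nor marked, so genes without AACTGATG cannot be said to lack the element. The bases are from RefSeq on GRCm38.p6, chromosome 17.
H2-Eb1: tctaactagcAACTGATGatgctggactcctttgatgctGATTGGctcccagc
H2-DMb1: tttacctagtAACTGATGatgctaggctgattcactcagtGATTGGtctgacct
H2-Aa: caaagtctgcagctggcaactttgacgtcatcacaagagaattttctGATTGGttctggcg
The stretch of *H2-Eb1* is chr17:34305768-34305820 on the plus strand and lies 99 to 47 bases before its start. That of *H2-DMb1* is chr17:34153089-34153142 (plus strand, 102 to 49 bases before the start), and that of *H2-Aa* is chr17:34287859-34287919 (minus strand, 96 to 36 bases before the start). The pair of elements was spaced by 21 bases in *H2-Eb1* and by 22 bases in *H2-DMb1*. Of the 11 genes of the list, 8 had a promoter entry of 250 bases before to 50 after the start. GATTGG, searched on both strands, was in all 8, against 16.1% of 32851 promoters, and AACTGATG was in 3 (*H2-Eb1*, *H2-Eb2* and *H2-DMb1*), against 0.776%. Both stood together in 0.11% of promoters. A match of letters is a description, and binding was not measured.

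Outside the class II molecules, *Ifi30*, the lysosomal thiol reductase GILT that unfolds antigens, was at 92.8, 91.6 and 90.8 CPM in WT mice and 116, 112 and 128 CPM in *MiR-29ab1-/-* mice (log2 fold change 0.37, standard error 0.09). The WT values spanned little and all *MiR-29ab1-/-* values were above them. *Ctss*, the protease that trims the invariant chain, was at 263, 299 and 339 CPM in WT mice and 261, 293 and 275 CPM in *MiR-29ab1-/-* mice (log2 fold change −0.12, standard error 0.12, p above 0.05). *Psme2*, a subunit of the proteasome activator PA28, was at 106, 163 and 143 CPM in WT mice and 205, 171 and 173 CPM in *MiR-29ab1-/-* mice (log2 fold change 0.41, standard error 0.16), and was the 1 higher gene of 14 in class I peptide loading. Class I itself had 1 higher and 1 lower of 17 and a median of 0.0072. *H2-K1* was at 1007, 2036 and 1482 CPM in WT mice and 1778, 1055 and 1715 CPM in *MiR-29ab1-/-* mice (log2 fold change 0.01, standard error 0.29, p above 0.05), and the genotypes overlapped fully. *H2-Q2* was higher (log2 fold change 0.33, standard error 0.15), a value that is uncertain because reads can be split among near-identical *H2-Q* genes. *Cd1d1*, which presents lipids to NKT cells, was lower at 3.89, 5.19 and 5.12 CPM in WT mice and 2.78, 2.23 and 3.66 CPM in *MiR-29ab1-/-* mice (log2 fold change −0.71, standard error 0.27).

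Of 11 tested costimulatory and checkpoint ligands, 2 were higher. *Cd86*, the B7-2 ligand of CD28, had very few reads, at 0.0837, 0.167 and 0.237 CPM in WT mice and 0.875, 0.636 and 0.749 CPM in *MiR-29ab1-/-* mice (log2 fold change 2.19, standard error 0.52). Its WT levels lay below the filter's minimum count of 10, so *Cd86* was tested only because of its level in *MiR-29ab1-/-* mice. Its p and its lack of overlap are therefore no support, though *Cd86* is counted among the 8 higher antigen presentation genes. *Btnl6*, a butyrophilin-like gene of gut epithelium, was at 59.5, 96.5 and 48.8 CPM in WT mice and 105, 111 and 98.5 CPM in *MiR-29ab1-/-* mice (log2 fold change 0.62, standard error 0.24). All *MiR-29ab1-/-* mice exceeded all WT mice for *Btnl6*, by the narrowest margin in mouse 3.

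Lipid genes showed changes in both directions. Over 120 tested genes in 5 lists, 8 were higher (6.67%, against 3.96% of all genes) and 9 lower (7.5%, against 3.25%), with a median of −0.017. Lipoprotein assembly and fat absorption had 4 higher and 1 lower of 25 (median 0.12), fatty acid synthesis 0 higher and 5 lower of 18 (median −0.35), and cholesterol synthesis and uptake 0 and 0 of 25 (median −0.077).

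*Apob*, the scaffold of chylomicrons (chr12:7977648-8016835), was at 107, 113 and 144 CPM in WT mice and 223, 193 and 223 CPM in *MiR-29ab1-/-* mice (log2 fold change 0.81, standard error 0.13). *Abcg5*, which with *Abcg8* returns sterols to the lumen, was at 3.73, 5.61 and 3.46 CPM in WT mice and 6.95, 11.5 and 11.8 CPM in *MiR-29ab1-/-* mice (log2 fold change 1.24, standard error 0.28). *Cideb*, a lipid droplet protein for lipoprotein maturation, was at 11.3, 12.5 and 12.8 CPM in WT mice and 17.4, 15.96 and 14.6 CPM in *MiR-29ab1-/-* mice (log2 fold change 0.39, standard error 0.13). All 3 genes, picked for p under 0.05, were higher in every *MiR-29ab1-/-* mouse than in every WT mouse, which held for 5.31% of all genes. *Dgat2*, the last enzyme of triglyceride synthesis, was at 58.8, 59.9 and 52.8 CPM in WT mice and 84.98, 84.8 and 55.3 CPM in *MiR-29ab1-/-* mice (log2 fold change 0.39, standard error 0.16), where mouse 3 lay in the WT range. *Scarb1*, the high-density lipoprotein receptor, was at 20.3, 20.8 and 22.7 CPM in WT mice and 12.97, 10.2 and 19.2 CPM in *MiR-29ab1-/-* mice (log2 fold change −0.59, standard error 0.21). *Fabp2*, the intestinal fatty acid binding protein, was at 279.8, 231 and 403 CPM in WT mice and 329, 204 and 289 CPM in *MiR-29ab1-/-* mice (log2 fold change −0.15, standard error 0.24, p above 0.05).

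The 5 lower genes of fatty acid synthesis act at different steps. *Acly* makes cytosolic acetyl-CoA from citrate and was at 336, 393 and 272 CPM in WT mice and 226, 222 and 254 CPM in *MiR-29ab1-/-* mice (log2 fold change −0.51, standard error 0.14). *Acss2* makes it from acetate and was at 132, 111 and 119.9 CPM in WT mice and 70.9, 70.8 and 114 CPM in *MiR-29ab1-/-* mice (log2 fold change −0.50, standard error 0.19). *Acaca*, the acetyl-CoA carboxylase that commits it to fatty acids, was at 39.5, 56.4 and 47.9 CPM in WT mice and 32.8, 30.5 and 43.7 CPM in *MiR-29ab1-/-* mice (log2 fold change −0.43, standard error 0.17). *Acly* did not overlap between the genotypes, whereas mouse 3 lay within the WT range for *Acss2* and *Acaca*. The acyl-CoA synthetase *Acsl3* was at 130.3, 99.6 and 132 CPM in WT mice and 84.7, 81.2 and 103 CPM in *MiR-29ab1-/-* mice (log2 fold change −0.43, standard error 0.14), and the desaturase *Scd2* at 449.7, 906 and 588 CPM in WT mice and 391, 292 and 494 CPM in *MiR-29ab1-/-* mice (log2 fold change −0.72, standard error 0.29). Without mouse 3 the list had 1 higher and 8 lower and a median of −0.52, where 8.41% of all genes were higher and 8.13% lower. By contrast, 2 members had p under 0.05 without *MiR-29ab1-/-* mouse 1 or mouse 2 and 3 without WT mouse 2. Without DSS the numbers were 0 and 0 of 18, with a median of −0.0053. With the mitochondrial share as a covariate the median after DSS was −0.10. The interaction for *Acly* was −0.48 on the log2 scale (standard error 0.19, unadjusted p under 0.05).

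Fatty acid oxidation had 1 higher and 1 lower of 30 and a median of −0.013. *Acadl*, the long-chain acyl-CoA dehydrogenase, was at 208, 253 and 229.7 CPM in WT mice and 326, 328 and 288 CPM in *MiR-29ab1-/-* mice (log2 fold change 0.44, standard error 0.11), with all *MiR-29ab1-/-* mice above all WT mice. Its log2 fold change without DSS was −0.07 and the interaction 0.52 (standard error 0.15, unadjusted p under 0.05). *Ppargc1a*, a coactivator of mitochondrial genes, was at 38.6, 35.99 and 34.2 CPM in WT mice and 23.1, 28.4 and 34.3 CPM in *MiR-29ab1-/-* mice (log2 fold change −0.34, standard error 0.15), lowest in the 2 mice with the largest share of mitochondrial reads.

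Among 22 genes of sphingolipids and phospholipids, 3 were higher and 2 lower. *Sgms1*, a sphingomyelin synthase, was at 23.4, 24.4 and 25.2 CPM in WT mice and 28.3, 29.2 and 30.7 CPM in *MiR-29ab1-/-* mice (log2 fold change 0.27, standard error 0.10). *Pla2g12b*, a secreted phospholipase-like protein needed for lipoprotein secretion, was at 3.43, 5.82 and 4.03 CPM in WT mice and 6.85, 6.52 and 7.54 CPM in *MiR-29ab1-/-* mice (log2 fold change 0.65, standard error 0.24). *Lpcat4*, a lysophospholipid acyltransferase, was at 21.2, 36.2 and 31.8 CPM in WT mice and 44.3, 54.9 and 36.3 CPM in *MiR-29ab1-/-* mice (log2 fold change 0.60, standard error 0.22). The genotypes did not overlap for these 3 genes, picked for p under 0.05, which held for 5.31% of all genes on the higher side. *Asah2*, the neutral ceramidase of the brush border, was at 14.1, 15.6 and 16.8 CPM in WT mice and 10.7, 11.3 and 13.7 CPM in *MiR-29ab1-/-* mice (log2 fold change −0.38, standard error 0.15). *B4galnt2*, a glycosyltransferase of gut glycans, was at 239, 215 and 265 CPM in WT mice and 193, 219.7 and 179 CPM in *MiR-29ab1-/-* mice (log2 fold change −0.28, standard error 0.12).

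Genes of the crypt base lay on the lower side. Of 17 tested genes of crypt stem cells and Wnt signalling, 0 were higher and 5 lower (29.4%, against 3.25% of all genes), with 15 of 17 on the negative side and a median of −0.41, which ranged from −0.65 to −0.34 when each mouse was left out in turn. *Lrig1*, a stem cell receptor that restrains ErbB signalling, was at 84.9, 77.3 and 71.8 CPM in WT mice and 46.9, 47.5 and 63.8 CPM in *MiR-29ab1-/-* mice (log2 fold change −0.56, standard error 0.14). *Ephb3*, an ephrin receptor of the crypt base (chr16:21204755-21223305), was at 18.8, 14.1 and 17.4 CPM in WT mice and 6.49, 6.204 and 11.8 CPM in *MiR-29ab1-/-* mice (log2 fold change −1.03, standard error 0.26). *Ascl2*, the Wnt-dependent factor of the stem cell state, was at 5.57, 2.39 and 4.603 CPM in WT mice and 0.154, 0.106 and 1.96 CPM in *MiR-29ab1-/-* mice (log2 fold change −2.42, standard error 0.94). All *MiR-29ab1-/-* mice were below all WT mice for the 3 genes, picked for p under 0.05, which held for 6.28% of all genes. *Ascl2* in *MiR-29ab1-/-* mice 1 and 2 was near the floor of 3 reads, and it passed the filter on low counts through the WT mice. *Lgr5*, the standard stem cell marker, was at 3.77, 1.549 and 2.04 CPM in WT mice and 0.721, 0.159 and 2.16 CPM in *MiR-29ab1-/-* mice (log2 fold change −1.23, standard error 0.74, p above 0.05). The Wnt target *Axin2* was at 14.8, 10.6 and 11.9 CPM in WT mice and 2.57, 1.96 and 12.7 CPM in *MiR-29ab1-/-* mice (log2 fold change −1.09, standard error 0.74, p above 0.05). Both were named after their values were seen, and both were low in mice 1 and 2 and within the WT range in mouse 3. *Prom1* was the member furthest to the positive side, at 318, 363 and 371 CPM in WT mice and 445, 572 and 343 CPM in *MiR-29ab1-/-* mice (log2 fold change 0.37, standard error 0.18, p above 0.05).

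Without mouse 3, 1 of the 17 was higher and 11 were lower, with a median of −0.65, where 8.41% of all genes were higher and 8.13% lower. By contrast, 2 had p under 0.05 without WT mouse 1 or *MiR-29ab1-/-* mouse 2 and 3 without *MiR-29ab1-/-* mouse 1. Without DSS 0 were higher and 1 was lower (median −0.048), where 2.07% of all genes were higher and 1.58% lower. The interaction had an unadjusted p under 0.05 for 6 of the 17 (against 4.03% of all genes) and an adjusted p under 0.05 for 0. The log2 difference was −1.20 (standard error 0.33) for *Ephb3* and −0.50 (standard error 0.16) for *Lrig1*, both among these 6. Of 18 proliferation genes 0 were higher and 2 lower (11.1%, against 3.25% of all genes), both subunits of the replicative helicase. *Mcm6* was at 63.2, 49.9 and 41.2 CPM in WT mice and 38.6, 27.1 and 34.8 CPM in *MiR-29ab1-/-* mice (log2 fold change −0.62, standard error 0.18), and *Mcm3* at 30.6, 25.9 and 20.9 CPM in WT mice and 21.6, 14.1 and 15.1 CPM in *MiR-29ab1-/-* mice (log2 fold change −0.61, standard error 0.20). *Mki67* was at 99.998, 128 and 114 CPM in WT mice and 107, 69.4 and 117 CPM in *MiR-29ab1-/-* mice (log2 fold change −0.22, standard error 0.19, p above 0.05), with overlap of the genotypes.

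**Figure D4:**
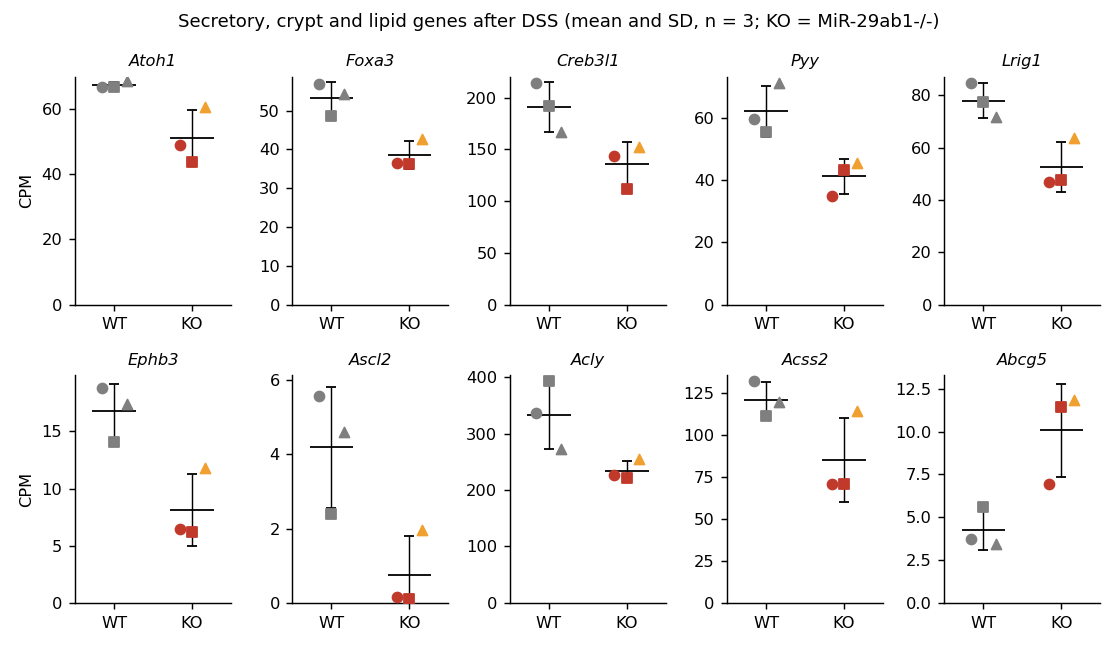
CPM of 10 secretory, crypt and lipid genes in WT and *MiR-29ab1-/-* (KO) mice after DSS, 1 symbol per mouse, with mean and SD (n = 3). *Atoh1*, *Foxa3*, *Creb3l1*, *Pyy*, *Lrig1*, *Ephb3*, *Ascl2* and *Acly* are lower and *Abcg5* is higher in every *MiR-29ab1-/-* mouse than in every WT mouse, and *Acss2* overlaps.

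Genes of injured epithelium and of defence had positive medians, with members called in both directions. Of 19 injury-associated genes 3 were higher (15.8%, against 3.96% of all genes) and 2 lower (10.5%, against 3.25%), with a median of 0.38. Without mouse 3 the numbers were 7 and 2, where 8.41% of all genes were higher and 8.13% lower. Members with p under 0.05 numbered 2 or 3 when any of WT mice 1 and 3 and *MiR-29ab1-/-* mice 1 and 2 was left out. With the mitochondrial share as a covariate the median was 0.017. *Plaur*, the urokinase receptor, was at 8.41, 9.21 and 12.1 CPM in WT mice and 23.7, 30.1 and 11.9 CPM in *MiR-29ab1-/-* mice (log2 fold change 1.14, standard error 0.33). The ErbB ligand *Areg* was at 78.6, 83.8 and 47.97 CPM in WT mice and 157, 208 and 76.7 CPM in *MiR-29ab1-/-* mice (log2 fold change 1.07, standard error 0.42). Both were high in mice 1 and 2 and in the WT range in mouse 3. *Clu*, a secreted chaperone and marker of regenerating crypt cells, was lower at 11.4, 14.4 and 9.68 CPM in WT mice and 6.79, 6.15 and 5.33 CPM in *MiR-29ab1-/-* mice (log2 fold change −0.96, standard error 0.20) in all 3 mice. The list is therefore not uniform.

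Of 17 antimicrobial and oxidant defence genes, 5 were higher (29.4%, against 3.96% of all genes) and 1 lower (5.88%, against 3.25%). The median was 0.93, and 0.51 without *MiR-29ab1-/-* mouse 2 or 0.37 with the mitochondrial share as a covariate. *Saa1*, a retinol-carrying acute phase protein, was at 288, 267 and 305 CPM in WT mice and 408, 683 and 602 CPM in *MiR-29ab1-/-* mice (log2 fold change 0.98, standard error 0.18). *Duox2*, the hydrogen peroxide generating oxidase of the apical membrane, was at 88.2, 173 and 171 CPM in WT mice and 295, 343 and 197 CPM in *MiR-29ab1-/-* mice (log2 fold change 0.95, standard error 0.32), whereas *Nox1*, the superoxide generating oxidase of colon crypts, was at 21.1, 20.6 and 17.6 CPM in WT mice and 9.11, 6.47 and 15.4 CPM in *MiR-29ab1-/-* mice (log2 fold change −0.93, standard error 0.29). Neither oxidase overlapped between the genotypes. *Il18*, an epithelial cytokine, was at 94.5, 123 and 92.4 CPM in WT mice and 148, 195 and 129 CPM in *MiR-29ab1-/-* mice (log2 fold change 0.60, standard error 0.17). *Reg3b*, a C-type lectin, was at 165, 996 and 327 CPM in WT mice and 2832, 13692 and 459 CPM in *MiR-29ab1-/-* mice (log2 fold change 3.51, standard error 1.51, p above 0.05), a value carried by *MiR-29ab1-/-* mouse 2. The 10 neutrophil markers summed to 46.5 to 101.5 CPM in the WT group against 91.8 to 226 CPM in the *MiR-29ab1-/-* group, with *Mpo* and *Elane* at 0 reads in all mice, and their part in these differences was not tested.

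Of 31 genes of xenobiotic and steroid metabolism 5 were higher (16.1%, against 3.96% of all genes) and 2 lower (6.45%, against 3.25%), with a median of −0.087. Without mouse 3 the balance turned to 4 higher and 11 lower (median −0.15), where 8.41% of all genes were higher and 8.13% lower. Members with p under 0.05 numbered 4 without WT mouse 1 or *MiR-29ab1-/-* mouse 1 and 1 without *MiR-29ab1-/-* mouse 2. *Cyp2c66* was at 2.18, 3.35 and 4.37 CPM in WT mice and 6.79, 5.73 and 7.58 CPM in *MiR-29ab1-/-* mice (log2 fold change 1.03, standard error 0.28). *Cyp2c55*, a colonic cytochrome of the same family, was at 1600, 1446 and 2064 CPM in WT mice and 1168, 1153 and 1374 CPM in *MiR-29ab1-/-* mice (log2 fold change −0.47, standard error 0.17). The genotypes did not overlap for either gene, and the directions were opposite. Without DSS 0 genes of the list were higher and 10 lower, *Cyp2c55* among the lower (log2 fold change −0.93), where 2.07% of all genes were higher and 1.58% lower.

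The last question was whether transcripts with a miR-29 site differed. Of 31 tested genes reported as miR-29 targets, 6 were higher (19.4%, against 3.96% of all genes) and 2 lower (6.45%, against 3.25%). The median was 0.24, and the higher ones included matrix genes. *Col3a1*, a fibrillar collagen, was at 4.98, 5.61 and 6.83 CPM in WT mice and 16.5, 17.1 and 7.58 CPM in *MiR-29ab1-/-* mice (log2 fold change 1.24, standard error 0.31). *Sparc*, a collagen-binding matrix protein, was at 3.81, 3.77 and 3.796 CPM in WT mice and 9.83, 17.7 and 4.41 CPM in *MiR-29ab1-/-* mice (log2 fold change 1.48, standard error 0.45). *Lamc1*, the γ1 chain of laminin, was at 6.24, 5.32 and 7.21 CPM in WT mice and 11.01, 9.76 and 8.28 CPM in *MiR-29ab1-/-* mice (log2 fold change 0.63, standard error 0.20). *Mcl1*, an inhibitor of apoptosis, was at 405, 384 and 404 CPM in WT mice and 477, 591 and 459 CPM in *MiR-29ab1-/-* mice (log2 fold change 0.36, standard error 0.13). All *MiR-29ab1-/-* mice exceeded all WT mice for these 4 genes, which held for 5.31% of all genes, and mouse 3 was the closest to the WT mice. The 4 had been picked for p under 0.05. *Cdk6*, a kinase of the G1 phase, went the other way, at 31.226, 29.8 and 33.2 CPM in WT mice and 22.6, 17.6 and 27.9 CPM in *MiR-29ab1-/-* mice (log2 fold change −0.46, standard error 0.16). The 9 fibroblast markers summed to 20.6 to 38.1 CPM in the WT group against 39.0, 48.2 and 16.1 CPM in *MiR-29ab1-/-* mice, and their part in the matrix genes was not tested.

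Sites are shown for all 16 genes given above with values, p under 0.05 and a match in the 3′ UTR, and for the 2 with more than 1 match the one nearest the stop codon. They are in the mouse sequence of GENCODE vM21 (GRCm38) with the 15 bases before the match. Capitals are the bases that pair with the seed, TGGTGCT, and the further A opposite base 1 of the miRNA where it was present.
Col3a1: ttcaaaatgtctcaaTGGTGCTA
Lamc1: tattatctgacacacTGGTGCTA
Mcl1: ctagagtcttaaccaTGGTGCTA
Icos: ttatctgtgtttccaTGGTGCTA
Rora: aattgaaggagtgtcTGGTGCTg
Hnf4g: ggcaaggcttcttcaTGGTGCTg
Slc7a11: tgatgcactctgtgtTGGTGCTg
Slc9a3: gatcctagggctctgTGGTGCTg
Abcg5: gcttgtggggcaatgTGGTGCTt
Fscn1: ctctggctctgtgatTGGTGCTc
Cdk6: cctgacctgtcccttTGGTGCTt
Ppargc1a: ttttggtacccgaacTGGTGCTt
Slc1a4: tgggagcgttgcatcTGGTGCTt
Vwa5b2: ccagggccagtctctTGGTGCTg
Slc5a8: cattttacatgccttTGGTGCTA
Ephb3: ggccctgcctaccctTGGTGCTg
The first 10 genes were higher and the last 6 lower in *MiR-29ab1-/-* mice. These genes had been picked for p under 0.05, and over all 1957 genes with 1 or more matches 108 were higher and 65 lower. *Sparc*, given above as a reported target, is not among the 16.

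Over all tested protein-coding genes with a 3′ UTR (12769), 3.95% were higher and 3.62% lower. Without a match to TGGTGCT on the transcript's strand (10812 genes), 3.67% were higher and 3.67% lower. With 1 match (1661 genes) the shares were 5.36% and 3.49%, and with 2 or more (296 genes) 6.42% and 2.36%. With a match to TGGTGCTA (403 genes, which are also in the classes with a match), 36 genes or 8.93% were higher and 7 or 1.74% lower, and the median log2 fold change was 0.034 against −0.015 without a match. Without *MiR-29ab1-/-* mouse 3 these 403 genes had 52 higher and 30 lower, and the 10812 without a match 877 and 986. In mice without DSS the numbers were 28 and 3, and 178 and 180. Genes with a match also had longer 3′ UTRs, with a median of 2664 bases for the 403 genes against 985.5 bases, and the part of UTR length in these shares was not tested.

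**Figure D5:**
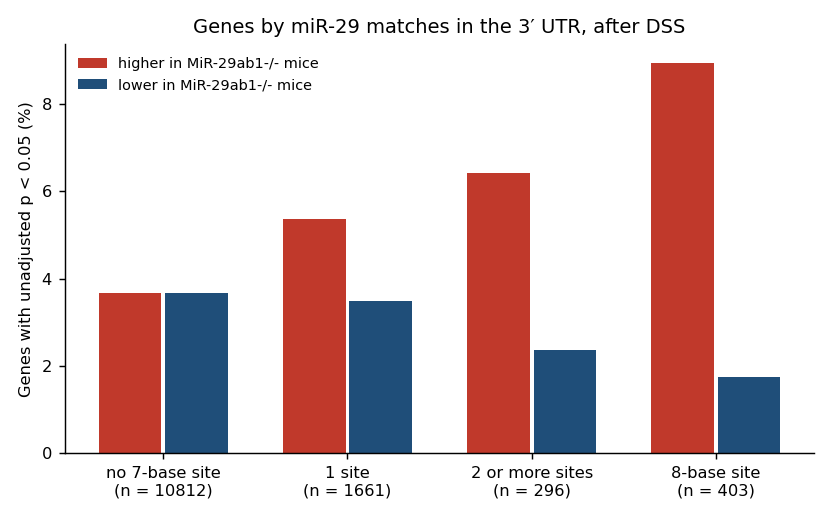
Percentage of protein-coding genes on the higher or lower side in *MiR-29ab1-/-* mice after DSS, with an unadjusted p under 0.05, by miR-29 matches in the 3′ UTR. The genes with an 8-base match (403, also counted in the classes of 1 or more sites) show 8.93% higher and 1.74% lower.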

How the data were processed

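Total RNA of mouse colon was extracted with TRIzol and made into strand-marking libraries (NEBNext Ultra Directional). For every mouse the authors deposited the raw read counts of each gene, without normalization, in separate tables for the mice after and without DSS. HISAT2 and DESeq2 are named in the submitters' processing notes without version or role. The counting tool, the genome build and the use of strand are not given in the sources used here. Of 54721 gene identifiers 54495 are in GENCODE vM21, and 98.33% of these have the same position there, so positions are on GRCm38. A further 14 columns of FPKM per mouse were not used, nor were the authors' columns of their own comparisons (group means, log2 fold changes, p and adjusted p). Samples that the study excluded were not analysed here.

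Counts were filtered with filterByExpr (minimum count 10, minimum total 15), scaled by TMM and compared between 3 and 3 mice by edgeR 4.0.16 (glmQLFit, robust, and glmQLFTest) in R 4.3.3, with Benjamini-Hochberg adjustment over all 14905 genes. Standard errors are the log2 fold change divided by the square root of F. The threshold was 0.05, adjusted and unadjusted. Whether the genotype effect differed with DSS (the interaction) was tested in 1 model over 14 mice with an intercept for each table. Total counts were 20076719 to 23153149 per mouse. Samples were grouped by the labels, and nothing in them says more about the replicates than that they are separate mice.

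Lists held 567 genes, of which 512 were tested. Per list, the text names members with p under 0.05 (at most the 8 smallest), the 2 with the highest mean CPM, and over all genes the 12 higher and 12 lower with the smallest p and no overlap. From these the text gives a part. *Fscn1*, *Lgr5* and *Axin2* were chosen after their values were seen, and the 11 genes of the IL-17 and JAK-STAT lists of the study were left out. Members and lists were chosen with earlier results of these data known. Promoters and miRNAs came from RefSeq and 3′ UTRs from GENCODE vM21. These sequence counts and the alternatives on mitochondrial reads were added after seeing the data. The other alternatives were DESeq2 1.42.0, RLE factors, limma-voom (limma 3.58.1), other filters, protein-coding genes only, all 14 mice in 1 model, and each mouse left out.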

Additional observations from a re-analysis of the deposited data

How the results depend on the processing

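No paired analysis was possible because the columns of the mice after DSS do not carry the replicate numbers of the labels, so the planned fit with a replicate block was not run. For 6 mice, DESeq2 called 42 genes higher and 15 lower after adjustment, against 0 and 0 for edgeR with its filter and 30 and 14 with no filter on low counts, which gave 1034 and 782 at an unadjusted p under 0.05. With the mitochondrial share as a covariate, which leaves 1 degree of freedom fewer, the latter were 125 and 134. When each mouse was left out in turn, the unadjusted numbers were 266 to 1285 higher and 215 to 1242 lower, the adjusted ones 0 to 52 and 0 to 39. The interaction had 410 to 1492 genes unadjusted and 0 to 1 adjusted. RLE factors, limma-voom, the stricter filter, protein-coding genes, all 14 mice in 1 model and the removal of mitochondrial genes kept the unadjusted numbers within 1.5 times.

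With the mitochondrial share as a covariate, list medians were 0.12 for brush border, −0.012 for membrane mucins, −0.41 for enteroendocrine transcription factors, −0.27 for IgA secretion, −0.10 for fatty acid synthesis, 0.10 for proliferation, 0.017 for injury-associated epithelium and 0.37 for antimicrobial genes, the last being 0.61 with at least 10 reads in every mouse. The ranges of medians with each mouse left out were −0.16 to 0.0043 for amino acid transporters, −0.35 to −0.075 for goblet cells, −0.12 to 0.31 for membrane mucins, −0.36 to −0.16 for enteroendocrine hormones, −0.35 to 0.010 for enteroendocrine transcription factors, −0.19 to 0.55 for IgA secretion, −0.041 to 0.35 for costimulation, −0.52 to −0.23 for fatty acid synthesis, 0.51 to 0.92 for antimicrobial genes, −0.16 to 0.15 for xenobiotic metabolism and 0.21 to 0.33 for miR-29 targets.

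Of the 97 genes given with values, none with p under 0.05 changed sign in any alternative run. With the covariate 50 lost p under 0.05, with all 14 mice in 1 model 28, and 1 with DESeq2. When a mouse was left out, 8 (*MiR-29ab1-/-* mouse 3), 28 and 30 (*MiR-29ab1-/-* mice 1 and 2) and 27, 18 and 25 (WT mice 1, 2 and 3) did so. Among genes above 0.05, the sign turned with the covariate for *Car1* (−0.12), *Fabp2* (0.018), *Mki67* (0.15), *Muc2* (0.081), *Prom1* (−0.0089) and *Reg3b* (−0.056). Left-out mice turned *Car1* (−0.12 to 0.14), *Fabp2* (−0.32 to 0.10), *H2-K1* (−0.22 to 0.28) and *H2-DMb2* (−2.74 to 1.16). The causes were not tested. At 3 against 3 mice, genes with few reads, such as *Cd86*, have wide errors.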
